A study of Mus musculus with 24 samples.

Results

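This report follows 7 genes that mark the subtypes of spinal motor neurons in the mouse, out of 38924 genes listed in the files and 17409 that could be tested. They were chosen by name: Chodl and Mmp9 for fast motor neurons, Esrrb and Sv2a for slow ones, and Esrrg, Htr1d and Wnt7a for gamma motor neurons. All 7 were tested. The data were 24 RNA-seq libraries of whole spinal cord from mice aged 8 weeks, 13 labelled male and 11 female, with library totals between 19.7 and 32.4 M counts (M, mega). The 6 genotype labels were Gcn2Homo;GarsHet (5 libraries), Gcn2Homo;GarsWT (3), Gcn2Het;GarsHet (4), Gcn2Het;GarsWT (4), Gcn2WT;GarsHet (4) and Gcn2WT;GarsWT (4), all on a strain background labelled B6J;CASTxB6.129. The study's design text writes the mutant allele as GarsP278KY/+ and Gcn2Homo as Gcn2-/-, and it does not list the Gcn2Het mice. GarsHet mice carry the mutant allele beside a wild-type one, and the labels name no Cre line or transgene. Gars encodes glycyl-tRNA synthetase, and dominant mutations in it cause an inherited neuropathy of motor and sensory axons. Gcn2 (gene symbol Eif2ak4) is a kinase that responds to amino acid shortage and to ribosomes that stall, and its activity sets off the integrated stress response.

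Motor neurons of the ventral horn fall into alpha cells, which drive the force-producing muscle fibres, and gamma cells, which drive the fibres inside muscle spindles. Alpha cells are further divided by the fibres they serve, and fast ones, which innervate fast fatigable fibres, are known as the most vulnerable in mouse models of motor neuron disease. Markers of these subtypes are transcripts that are enriched in a subtype among motor neurons, and several are also made by other cells of the spinal cord. Chodl encodes chondrolectin, a membrane protein with a C-type lectin domain, and marks fast motor neurons. Mmp9 encodes a matrix metalloproteinase, marks fast motor neurons, and is also a granule protein gene of neutrophils. Esrrb encodes an orphan nuclear receptor, and Sv2a a glycoprotein of synaptic vesicles that many neurons make. Esrrg encodes a nuclear receptor related to Esrrb, Htr1d a serotonin receptor, and Wnt7a a secreted signalling protein.

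Chodl (ENSMUSG00000022860) is a protein-coding gene on chromosome 16, at 78930948 to 78951733 of the plus strand of GRCm38. Its upstream sequence is shown because Chodl is the member on which the results turn. The run below is the 250 bases before its start, chr16:78930698-78930947 on the plus strand of GRCm38.p6, from RefSeq, written 5′ to 3′ with a match to the TATA box letters TATATAA in capitals.
Chodl: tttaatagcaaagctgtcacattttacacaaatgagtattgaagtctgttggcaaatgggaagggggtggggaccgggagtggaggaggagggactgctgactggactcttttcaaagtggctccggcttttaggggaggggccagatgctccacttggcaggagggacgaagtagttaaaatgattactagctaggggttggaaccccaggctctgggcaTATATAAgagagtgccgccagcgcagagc
That motif was looked for after the sequence had been seen, and on either strand it occurs in 3.04% of the 32851 promoters of the same length in the RefSeq table. The letters AAGGTCA, the core of the element bound by the receptors that Esrrb and Esrrg encode, occur in 4.08% of them. The letters TGATGNAA, the core of the element bound by ATF4 with C/EBP factors, occur in 3.45%. Neither is in the window printed here on either strand, nor in the same window of the other 10 RefSeq promoters found for the members. Those 11 promoters belong to 6 of the 7 members, and Mmp9 had no entry. The measurements reported here are of RNA and do not bear on binding at these sites.

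With 2 intact copies of Gcn2, the mutant Gars genotype went with a large loss of Chodl RNA. Values are given in CPM, counts relative to the library total after TMM scaling. Chodl had 6.99, 5.30, 7.81 and 5.69 CPM in the 4 Gcn2WT;GarsHet libraries, against 29.0, 36.7, 24.2 and 24.4 CPM in the 4 Gcn2WT;GarsWT libraries. Every GarsHet library was far below every GarsWT library, so the groups did not overlap. The group means were 6.45 ± 1.16 CPM and 28.6 ± 5.87 CPM (SD, n = 4 each). Chodl fell by 2.09 ± 0.21 on the log2 scale (SE), a level 4.26-fold lower, with a 95% interval of the log2 change of -2.53 to -1.65. By edgeR's quasi-likelihood test the adjusted p was 1.37e-05, and Chodl ranked 4 by p among all genes tested. A gene is called here at an adjusted p below 0.05. Chodl was the only called member of the 7, in a comparison that called 0.632% of all genes tested and 0.419% as lower. Groups that did not overlap, with GarsHet lower, were found for 4.16% of genes. In whole tissue, fewer cells of a type and less RNA per cell cannot be told apart, and that holds for every value below.

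**Figure D1:**
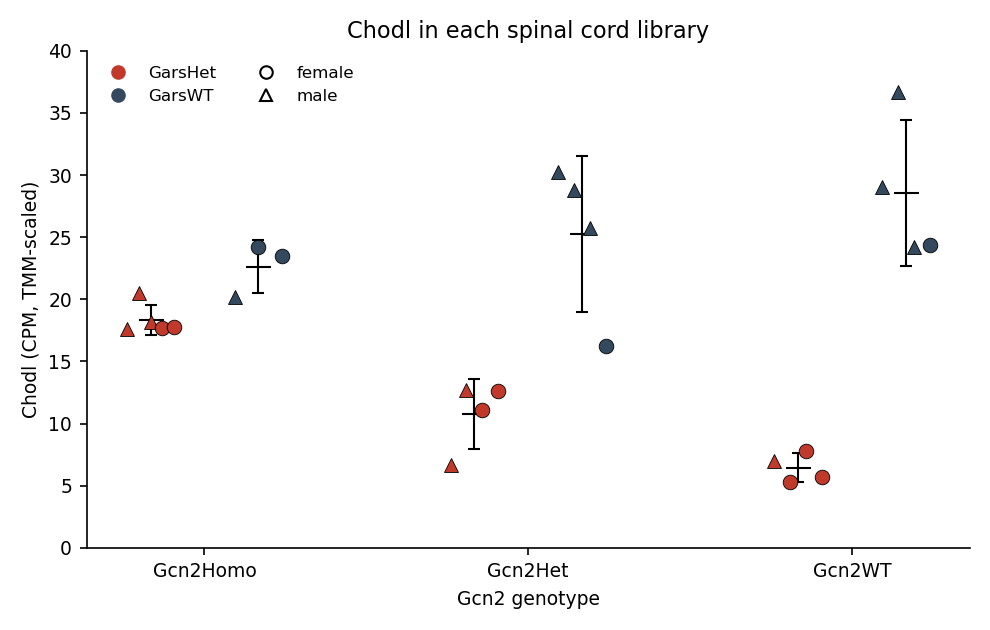
Chodl in each of the 24 libraries, in TMM-scaled CPM on a linear axis from 0, by Gcn2 genotype with GarsHet (red) left of GarsWT (blue). Circles are females, triangles males, and the bars show the mean and SD of a group. The 5 Gcn2Homo;GarsHet libraries lie between 17.6 and 20.5 CPM, and the 4 Gcn2WT;GarsHet libraries between 5.30 and 7.81 CPM.

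Libraries differed in tissue content. The summed level of 10 Schwann cell genes ran from 97.9 to 2856 CPM over the Gcn2WT;GarsHet libraries and from 77.9 to 122 CPM over the Gcn2WT;GarsWT libraries. In all, 5 libraries had a mean log2 CPM of these genes above 2: Gcn2WT;GarsHet replicates 2 and 4, Gcn2Het;GarsHet replicate 4, and Gcn2Het;GarsWT replicates 1 and 3. The pair of Gcn2WT;GarsHet libraries rich in Schwann cell RNA had 5.30 and 5.69 CPM of Chodl, both lower than the other pair of that group, which had 6.99 and 7.81 CPM. Gcn2Het;GarsHet replicate 4, also rich in it, had 12.6 CPM, inside the 6.70 to 12.7 CPM of the rest of its group. Gcn2Het;GarsWT replicates 1 and 3, the remaining libraries rich in it, were at 30.2 and 25.8 CPM. Without all 5 of these libraries, a choice made after seeing the data, Chodl still fell in Gcn2WT mice, by 1.92 on the log2 scale (edgeR adjusted p = 0.00351). The sexes were unevenly spread, with 1 male among the 4 Gcn2WT;GarsHet mice and 3 among the 4 Gcn2WT;GarsWT mice, so sex was a term in the fit, in which the male minus female difference in Chodl was 0.11 ± 0.12 (log2, SE). A female pair that shares the number opening the title, whose meaning is not stated, had 5.30 CPM in the Gcn2WT;GarsHet mouse and 24.4 CPM in the Gcn2WT;GarsWT mouse.

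Without Gcn2, Chodl did not pass the test between the Gars genotypes. Chodl had 17.6, 20.5, 18.2, 17.7 and 17.7 CPM in Gcn2Homo;GarsHet libraries, against 20.2, 24.2 and 23.5 CPM in Gcn2Homo;GarsWT libraries. The groups overlapped, since GarsHet replicate 2 was above the lowest GarsWT library. The log2 change was -0.34 ± 0.20, with a 95% interval of -0.75 to 0.08 and an edgeR adjusted p of 0.941. The interval leaves room for a loss, but not for one as large as in Gcn2WT mice. In this comparison 0.0115% of genes were called and 0 of the 7 members. At an unadjusted p below 0.05 there were 757 genes and 1 member, Mmp9.

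With 1 intact copy of Gcn2 Chodl fell, by less than with 2 copies as far as the point estimates go. It had 6.70, 12.7, 11.1 and 12.6 CPM in Gcn2Het;GarsHet libraries, against 30.2, 28.8, 25.8 and 16.2 CPM in Gcn2Het;GarsWT libraries. The groups did not overlap, although GarsWT replicate 4 stood well below the other libraries of its group. The log2 change was -1.19 ± 0.20 (95% interval -1.61 to -0.77, edgeR adjusted p = 0.0104), a level 2.28-fold lower. Chodl was again the only member called, where 0.178% of genes were called and 0.126% were called lower. Groups without overlap and lower in GarsHet were found for 3.41% of genes. This call was lost in 4 of 35 alternatives, among them the fit without the 5 libraries rich in Schwann cell RNA, where the log2 change was -1.15 and the adjusted p 0.244.

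The difference of the Gars effect between Gcn2 genotypes was tested directly. For Chodl the change in Gcn2Homo mice minus that in Gcn2WT mice was 1.75 ± 0.30 (log2, 95% interval 1.13 to 2.38). Its unadjusted p was 9.61e-06, which ranked 3 among all genes, and its edgeR adjusted p was 0.0536, so it was not called by the main test. Calls in that comparison were 0.0115% of genes and 0 of the 7 members, while 857 genes and the members Chodl and Mmp9 had an unadjusted p below 0.05. DESeq2 gave 1.76 with an adjusted p of 1.75e-05 and called Chodl, among 35 genes in all. Without the 5 libraries rich in Schwann cell RNA, the difference was 1.59 with an edgeR adjusted p of 0.311. The change in Gcn2Het minus that in Gcn2WT mice was 0.90 ± 0.27, with an edgeR adjusted p of 0.0614, also not called. There edgeR called 3.7% of genes (644) and 0 of the 7 members, and DESeq2 called 1713 genes. That background rests on single libraries: edgeR called 0 genes without any one of Gcn2Het;GarsHet replicates 2 and 3, Gcn2WT;GarsHet replicate 2 and Gcn2WT;GarsWT replicate 4, and 1786 genes without replicate 1 of Gcn2WT;GarsWT. These differences share the Gcn2WT libraries.

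The same values can be read between Gcn2 genotypes. In mice with mutant Gars, all 5 Gcn2Homo libraries were above all 4 Gcn2WT libraries, and Chodl was higher in Gcn2Homo by 1.47 ± 0.20 on the log2 scale (2.77-fold, edgeR adjusted p = 5.05e-04). There 0.494% of genes were called, and 2.11% were higher in Gcn2Homo without overlap. In mice with wild-type Gars, Chodl averaged 22.6 ± 2.14 CPM in Gcn2Homo mice (SD, n = 3) and 28.6 ± 5.87 CPM in Gcn2WT mice (SD, n = 4), a log2 change of -0.28 ± 0.21 that was not called. Here 0.0287% of genes and 0 of the 7 members were called. For Gcn2Het against Gcn2WT the log2 change was 0.72 ± 0.20 in GarsHet mice (unadjusted p = 0.00171, edgeR adjusted p = 0.435) and -0.18 ± 0.19 in GarsWT mice. edgeR called no gene in either of these comparisons (0% of genes), with 1900 genes at an unadjusted p below 0.05 in GarsHet mice and 3001 in GarsWT mice. DESeq2 called 16 genes in GarsHet mice and 457 in GarsWT mice, and 0 of the 7 members in either. Without replicate 1 of the Gcn2WT group, edgeR called 664 genes in GarsWT mice. Chodl in Gcn2Homo;GarsHet libraries was also above every Gcn2Het;GarsHet library, by 0.75 ± 0.19 (log2, unadjusted p = 6.82e-04, edgeR adjusted p = 0.224). That comparison was added after the values were seen and called 0.0862% of genes. The share of all genes whose values separate these groups was not computed. The order of group means in GarsHet mice was therefore Gcn2Homo (18.3 ± 1.21 CPM, n = 5), Gcn2Het (10.8 ± 2.83, n = 4) and Gcn2WT (6.45 ± 1.16, n = 4; SD). Of the neighbours in that order, Gcn2Het and Gcn2WT overlapped, and neither neighbouring pair passed the edgeR test. DESeq2 called Chodl between Gcn2Homo and Gcn2Het in GarsHet mice, with a log2 change of 0.75 and an adjusted p of 0.0319.

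The other fast marker, Mmp9, was not called where Chodl fell. Mmp9 (ENSMUSG00000017737, chromosome 2, 164940780 to 164955850, plus strand) had 8.13, 8.46, 8.45 and 9.29 CPM in Gcn2WT;GarsHet libraries, against 8.27, 7.40, 7.47 and 8.15 CPM in Gcn2WT;GarsWT libraries. The groups overlapped, and the log2 change was 0.08 ± 0.11 (95% interval -0.14 to 0.31), which leaves no room for a loss like that of Chodl. In Gcn2Het mice it had 9.29, 8.81, 10.8 and 8.86 CPM with GarsHet, against 10.03, 10.2, 7.46 and 9.57 CPM with GarsWT, a log2 change of -0.01 ± 0.10.

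Mmp9 was highest in the mice that were both Gcn2Homo and GarsHet. It had 11.03, 11.5, 12.8, 11.6 and 14.7 CPM in Gcn2Homo;GarsHet libraries, against 8.72, 9.74 and 8.00 CPM in Gcn2Homo;GarsWT libraries. All 5 Gcn2Homo;GarsHet libraries lay above each of the other 19. Between the Gars genotypes in Gcn2Homo mice, 2.11% of genes had higher values with GarsHet and no overlap. The share of all genes that set these 5 libraries above the other 19 is not given here. Against Gcn2WT mice with mutant Gars, Mmp9 was higher by 0.55 ± 0.10 on the log2 scale (1.47-fold, edgeR adjusted p = 0.00760). Mmp9 and Chodl were the 2 of 7 members called there, where 0.494% of genes were called and 0.236% were called higher, and 2.11% of genes had higher groups without overlap. Against Gcn2Homo mice with wild-type Gars, Mmp9 was higher by 0.51 ± 0.11, with an unadjusted p of 1.38e-04 that ranked 6 and an edgeR adjusted p of 0.401, so it was not called, while DESeq2 gave an adjusted p of 0.0102. The difference of the Gars effect, Gcn2Homo minus Gcn2WT, was 0.42 ± 0.16 and was not called (edgeR adjusted p = 0.937).

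The call of Mmp9 against Gcn2WT;GarsHet was lost in 5 of 36 alternatives. Without Gcn2Homo;GarsHet replicate 5, which had the highest value, the log2 change was 0.49 and the edgeR adjusted p 0.0524, and without the 5 libraries rich in Schwann cell RNA they were 0.59 and 0.0593. Of 8 bone marrow and neutrophil genes, 6 could be tested between Gcn2Homo and Gcn2WT in GarsHet mice, with 0 called, 6 of 6 point estimates below 0 and a median log2 change of -1.09 beside -0.0021 for all genes tested. Their summed level was 0.188 to 8.49 CPM in Gcn2Homo;GarsHet and 0.816 to 6.87 CPM in Gcn2WT;GarsHet libraries. The 2 groups overlapped in that level. The untested genes Elane and Retnlg were at 0 in 15 and 9 of the 24 libraries, and Camp, Ltf, Mpo and S100a9 in 6, 4, 3 and 1 of them, while S100a8 and Ngp were detected in all 24. With the mean of these genes as a covariate, a setting chosen after seeing the data, Mmp9 kept its call against Gcn2WT;GarsHet. Whether neutrophil RNA is a cause of the Mmp9 result was not tested further. Mmp9 lies on the same chromosome as Eif2ak4, 46.5 Mb away. Among 102 tested genes within 5 Mb of Mmp9, 2 were called between Gcn2Homo and Gcn2WT in GarsHet mice, beside 0.494% of all genes tested. They were Fitm2 and Zhx3, which are named here after their values were seen. Within 5 Mb of Eif2ak4, 12 of 123 tested genes other than Eif2ak4 were called in the same comparison. Whether sequence linked to the Gcn2 allele bears on Mmp9 was not tested.

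**Figure D2:**
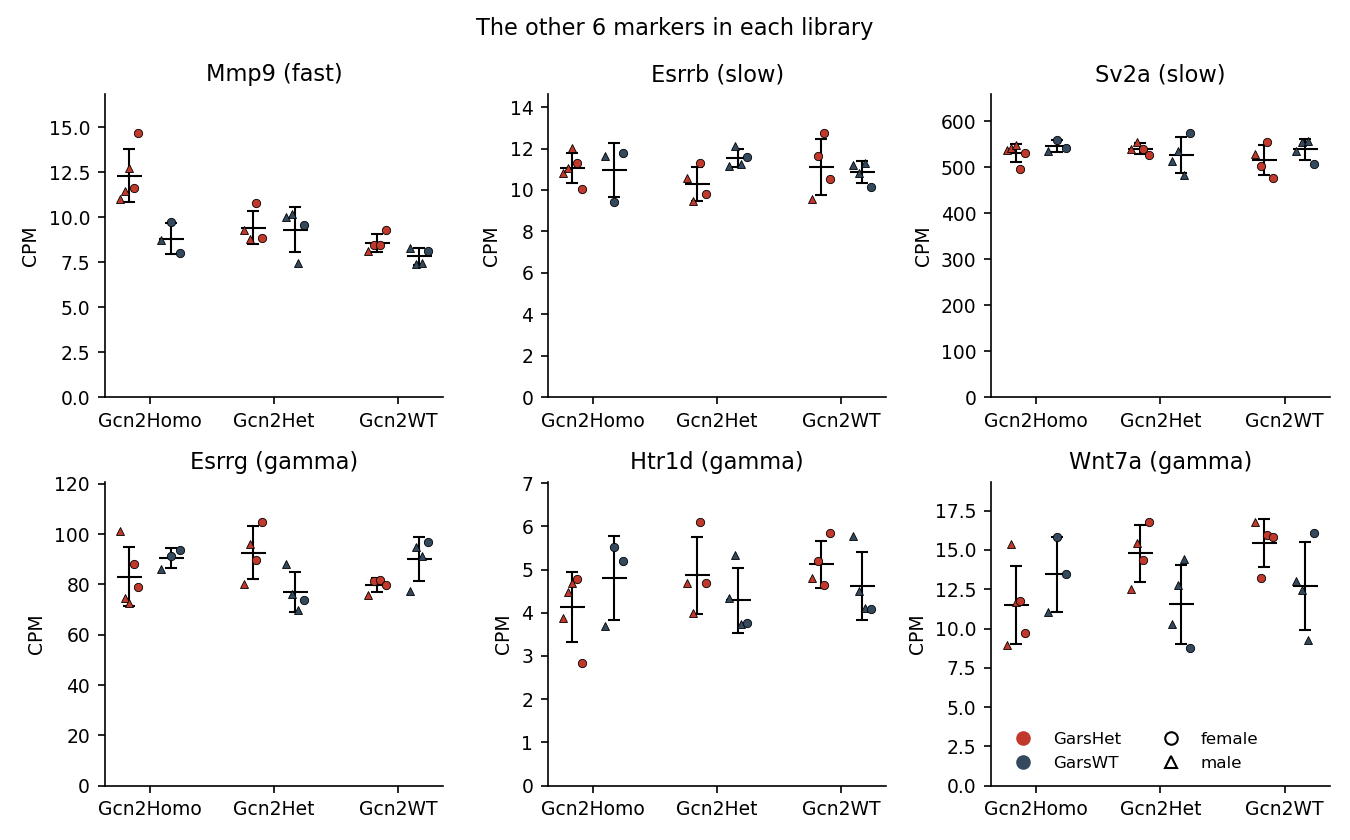
Mmp9, Esrrb, Sv2a, Esrrg, Htr1d and Wnt7a in each of the 24 libraries, in TMM-scaled CPM on linear axes from 0, by Gcn2 genotype with GarsHet (red) left of GarsWT (blue). Circles are females, triangles males, and the bars show the mean and SD of a group. The 5 Gcn2Homo;GarsHet libraries have the highest Mmp9 values, at 11.03 to 14.7 CPM, and the groups of the other 5 genes overlap in all 3 Gcn2 genotypes.

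The slow markers did not pass the test in any comparison of the 6 groups. Esrrb (ENSMUSG00000021255, chromosome 12, 86361117 to 86521628, plus strand) had 9.58, 11.6, 12.7 and 10.5 CPM in Gcn2WT;GarsHet libraries, against 11.2, 10.8, 11.3 and 10.1 CPM in Gcn2WT;GarsWT libraries, a log2 change of 0.03 ± 0.10 (95% interval -0.17 to 0.24). The mutants spanned the whole range of the controls. Its log2 change with GarsHet was 0.01 ± 0.10 in Gcn2Homo mice and -0.17 ± 0.09 in Gcn2Het mice. Over all 24 libraries Esrrb ran from 9.44 to 12.7 CPM.

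Sv2a (ENSMUSG00000038486, chromosome 3, 96181151 to 96195521, plus strand) was the steadiest member. It had 528, 503, 554 and 476 CPM in Gcn2WT;GarsHet libraries, against 534, 555, 557 and 507 CPM in Gcn2WT;GarsWT libraries. The log2 change was -0.05 ± 0.06, with a 95% interval of -0.17 to 0.06. Its highest library exceeded its lowest 1.21-fold among all 24, against 6.93-fold for Chodl. The log2 change with GarsHet was -0.04 ± 0.06 in Gcn2Homo mice and 0.04 ± 0.05 in Gcn2Het mice. Since many neurons make Sv2a, its level in whole cord is not that of slow motor neurons alone.

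The gamma markers were not called either. Esrrg (ENSMUSG00000026610, chromosome 1, 187608791 to 188214885, plus strand) had 75.9, 81.5, 81.7 and 79.8 CPM in Gcn2WT;GarsHet libraries, against 77.5, 94.8, 91.5 and 96.6 CPM in Gcn2WT;GarsWT libraries. Only GarsWT replicate 1 lay within the range of the mutants. The log2 change was -0.21 ± 0.10 (edgeR adjusted p = 0.295). In Gcn2Het mice Esrrg had 80.1, 95.9, 89.7 and 105 CPM with GarsHet, against 87.9, 76.4, 69.6 and 73.6 CPM with GarsWT, a log2 change of 0.25 ± 0.10 that was not called (edgeR adjusted p = 0.275). The difference of these effects, Gcn2Het minus Gcn2WT, was 0.46 ± 0.14 with an edgeR adjusted p of 0.0592. In Gcn2Homo mice the log2 change of Esrrg with GarsHet was -0.10 ± 0.10.

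Htr1d (ENSMUSG00000070687, chromosome 4, 136423524 to 136444398, plus strand) was the member with the fewest reads, between 74 and 163 rounded counts in a library. It had 4.79, 5.20, 4.63 and 5.84 CPM in Gcn2WT;GarsHet libraries, against 5.77, 4.50, 4.11 and 4.08 CPM in Gcn2WT;GarsWT libraries. The groups overlapped, and the 95% interval of the log2 change (0.13 ± 0.19) reached from -0.27 to 0.53. The log2 change was -0.21 ± 0.19 in Gcn2Homo mice and 0.17 ± 0.19 in Gcn2Het mice.

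Wnt7a (ENSMUSG00000030093, chromosome 6, 91363981 to 91411363, minus strand) lies on the chromosome of Gars, 36.3 Mb away. It had 16.8, 13.2, 16.0 and 15.8 CPM in Gcn2WT;GarsHet libraries, against 13.0, 12.5, 9.28 and 16.1 CPM in Gcn2WT;GarsWT libraries. The mutants were mostly higher but the groups overlapped, and the log2 change was 0.27 ± 0.19 (edgeR adjusted p = 0.490). In Gcn2Homo mice it was -0.22 ± 0.19 and in Gcn2Het mice 0.35 ± 0.19. Between Gcn2Homo and Gcn2WT mice with mutant Gars it was -0.42 ± 0.18, with an unadjusted p of 0.0278 and an edgeR adjusted p of 0.412.

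**Figure D3:**
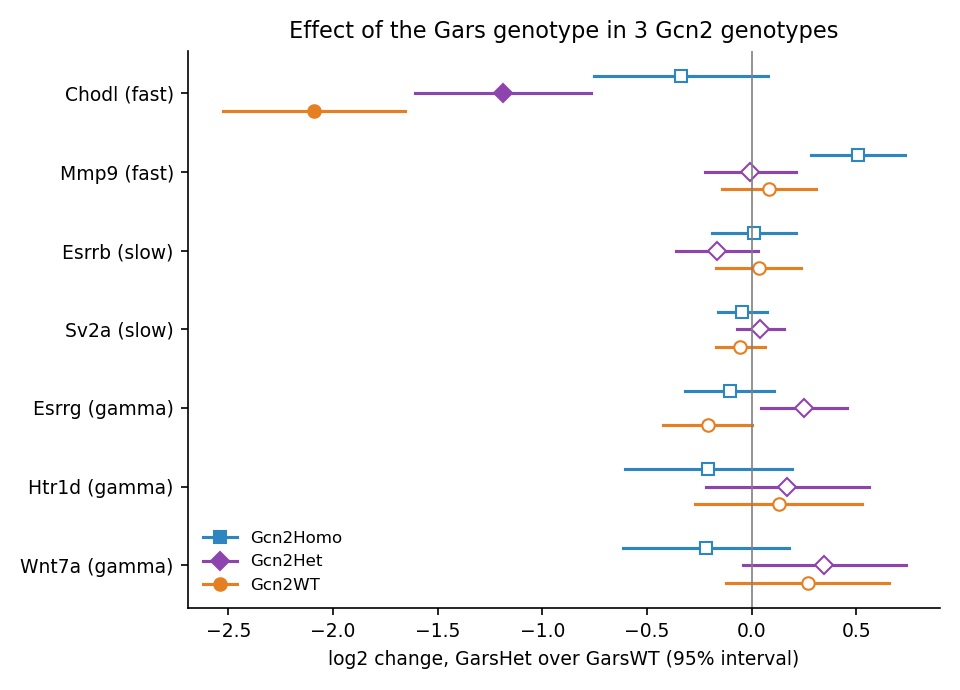
Log2 change of each member, GarsHet over GarsWT, in Gcn2Homo (squares), Gcn2Het (diamonds) and Gcn2WT mice (circles), with 95% intervals from the edgeR fit. Filled symbols passed an adjusted p of 0.05. Chodl is filled at -1.19 in Gcn2Het and -2.09 in Gcn2WT, and apart from Chodl the members lie between -0.21 and 0.27 in Gcn2WT mice.

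Compared per transcript length, the members differed widely in level. The mean over all 24 libraries was 234 TPM (transcript abundance relative to the library, as deposited) for Sv2a, 31.5 TPM for Esrrg, 14.2 TPM for Chodl, 7.98 TPM for Wnt7a, 5.76 TPM for Mmp9, 5.02 TPM for Htr1d and 4.99 TPM for Esrrb. The single libraries of Wnt7a (5.29 to 10.5 TPM), Mmp9 (4.17 to 8.84), Htr1d (2.76 to 7.87) and Esrrb (4.15 to 5.94) overlapped one another, so the order of these genes is not beyond their spread. Chodl ran from 4.34 to 26.8 TPM. In Gcn2WT;GarsHet mice it had 5.24 ± 1.05 TPM and in Gcn2WT;GarsWT mice 21.5 ± 4.07 TPM (SD, n = 4 each), so that its place relative to the low members depended on the genotype.

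Chodl was also set against the genes that motor neurons of all subtypes share. On the log2 scale with 0.1 CPM added, Chodl relative to the mean of 6 pan motor neuron genes was -1.58 ± 0.27 in Gcn2WT;GarsHet and 0.04 ± 0.25 in Gcn2WT;GarsWT mice (SD, n = 4 each). The difference was -1.61, and the exact two-sided permutation test gave p = 0.0286, the smallest it allows with 4 against 4, and 0.0714 after Benjamini-Hochberg adjustment over the 3 Gcn2 genotypes. The same difference was -0.82 in Gcn2Het mice (exact permutation p = 0.0571) and -0.27 in Gcn2Homo mice (exact permutation p = 0.0714). After adjustment over the 3 genotypes, all were at 0.0714 and so none passed. The 6 genes counted equally in the mean, although Isl1 was at 1.10 to 2.68 CPM over all libraries and Nefh at 614 to 1211 CPM. Their levels are those of whole cord, and how much of them came from motor neurons was not tested.

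Of the pan motor neuron genes, Slc18a3 was not analysed here, and 4 of the other 6 fell with GarsHet in Gcn2WT mice. Chat, the enzyme that makes acetylcholine, had 14.8, 13.7, 15.6 and 14.9 CPM in Gcn2WT;GarsHet libraries, against 22.7, 23.4, 20.7 and 20.4 CPM in Gcn2WT;GarsWT libraries, a log2 change of -0.55 ± 0.07 (edgeR adjusted p = 3.78e-04). Slc5a7, the choline transporter, fell by 0.72 ± 0.13, and the intermediate filament genes Prph and Nefh by 0.81 ± 0.11 and 0.53 ± 0.07. By point estimate each of these changes was smaller than that of Chodl on the same scale. The motor neuron transcription factor genes Isl1 and Mnx1 were at -0.48 ± 0.21 and 0.04 and were not called. The median of the 6 genes was -0.54, beside 0.01 over all genes tested.

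Further genes of the same subtypes were looked at beside the members. Of 3 further fast genes, Calca, which encodes the peptide CGRP and is made by sensory neurons too, fell by 2.25 ± 0.19 in Gcn2WT mice (edgeR adjusted p = 1.61e-06). Kcng4, a potassium channel subunit gene that also marks fast motor neurons, was at -0.78 ± 0.26 (edgeR adjusted p = 0.146), and Dlk1, a Notch ligand homologue known to promote fast properties, at 0.25 ± 0.12. Of 4 alpha motor neuron genes, the NMDA receptor subunit gene Grin3b fell by 0.68 ± 0.11 (edgeR adjusted p = 0.00310), while Vipr2 (-0.80 ± 0.21), Spp1 (-0.40 ± 0.11) and Rbfox3 (-0.06) were not called. None of the 2 further slow genes and 4 further gamma genes was called in Gcn2WT mice, with medians of 0.02 and -0.07. In all, 6 of 19 tested motor neuron genes that are no members fell and 0 rose, with a median of -0.40.

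In Gcn2Homo mice Calca alone of those 19 genes was called with GarsHet, and it fell by 1.96 ± 0.19, close to its loss in Gcn2WT mice. Calca had 4.09, 4.59, 5.21, 4.44 and 5.89 CPM in Gcn2Homo;GarsHet libraries, against 13.8, 20.2 and 24.8 CPM in Gcn2Homo;GarsWT libraries. The groups did not overlap, unlike those of Chodl in the same libraries. The share of all genes lower with GarsHet and without overlap in Gcn2Homo mice is not given here. The difference of the Calca effect, Gcn2Homo minus Gcn2WT, was 0.29 ± 0.28 (edgeR adjusted p = 0.938), beside 1.75 ± 0.30 for Chodl. Of a sensory neuron list that does not hold Calca, 3 of 7 genes could be tested in Gcn2WT mice, and 2 of the 3 rose with GarsHet while the other was not called. Their summed level was 7.21 to 8.28 CPM in Gcn2WT;GarsHet and 2.01 to 3.12 CPM in Gcn2WT;GarsWT libraries. In Gcn2Het mice 4 of the 19 fell with GarsHet, namely Calca (1.88 ± 0.19), Prph (0.97 ± 0.11), Chat (0.53 ± 0.07) and Nefh (0.44 ± 0.07). Between Gcn2Homo and Gcn2WT mice with mutant Gars, 4 of the 19 were called and all were higher in Gcn2Homo: Grin3b by 0.71 ± 0.10, Prph by 0.66 ± 0.11, Nefh by 0.50 ± 0.07 and Chat by 0.45 ± 0.07.

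**Figure D4:**
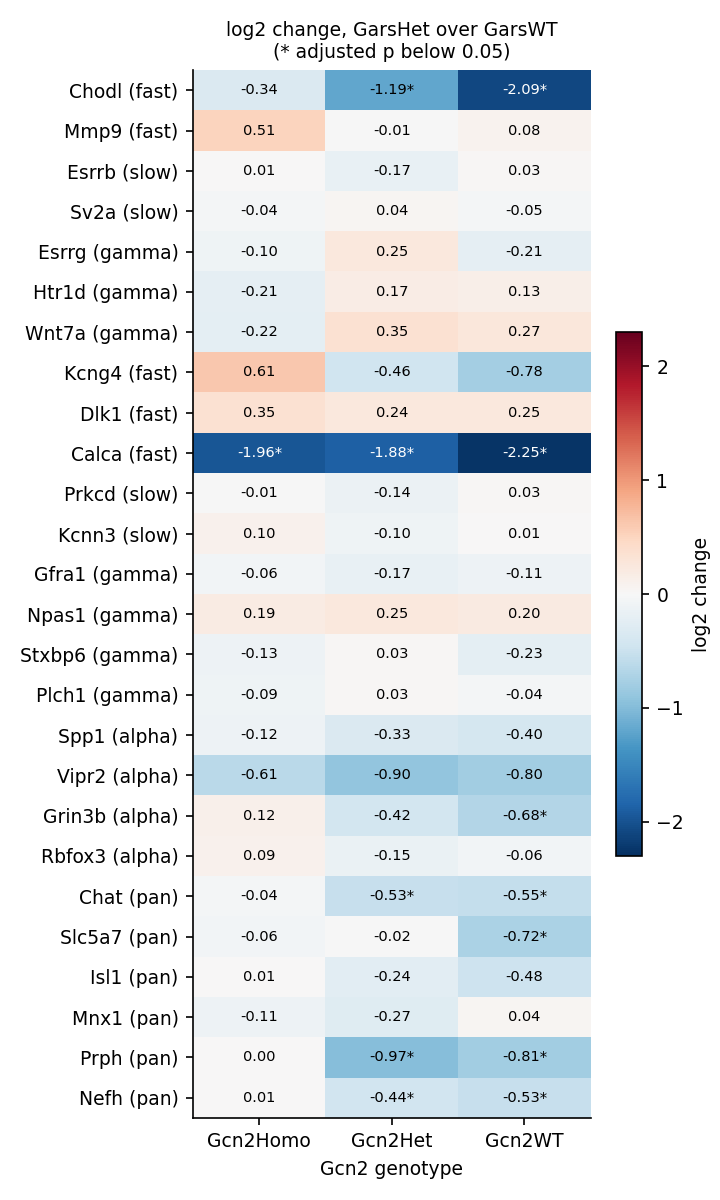
Log2 change, GarsHet over GarsWT, of the 7 members and 19 further motor neuron genes (rows, with the subtype each marks) in Gcn2Homo, Gcn2Het and Gcn2WT mice (columns), with an asterisk at an edgeR adjusted p below 0.05. Chodl is at -0.34 in Gcn2Homo, -1.19 in Gcn2Het and -2.09 in Gcn2WT, while Calca is at -1.96 in Gcn2Homo and -2.25 in Gcn2WT.

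The genes whose levels were most like that of Chodl over the 24 libraries were Nefh (Pearson r = 0.92 across log2 CPM), Chat (0.92), Kcnj14 (0.90), Nefm (0.89), Nefl (0.89), Slc10a4 (0.89), Rimkla (0.87), Ahnak2 (0.86), Uts2b (0.86) and Cd24a (0.86). The libraries share their genotype groups, which alone can give such values, and without the 4 Gcn2WT;GarsHet libraries r was 0.83 for Nefh and 0.83 for Chat over the other 20. About their own group means, Chodl and Nefh had an r of 0.50, Chodl and Chat of 0.47, and Chodl and Cd24a of -0.09. The other members were not among these similar genes. Over the 24 libraries r was 0.22 for Sv2a, 0.14 for Esrrg, 0.11 for Esrrb, -0.01 for Mmp9, -0.23 for Htr1d and -0.33 for Wnt7a. About group means, r with Chodl was 0.51 for Wnt7a, 0.31 for Esrrg, 0.18 for Htr1d, 0.04 for Sv2a, -0.09 for Mmp9 and -0.09 for Esrrb.

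**Figure D5:**
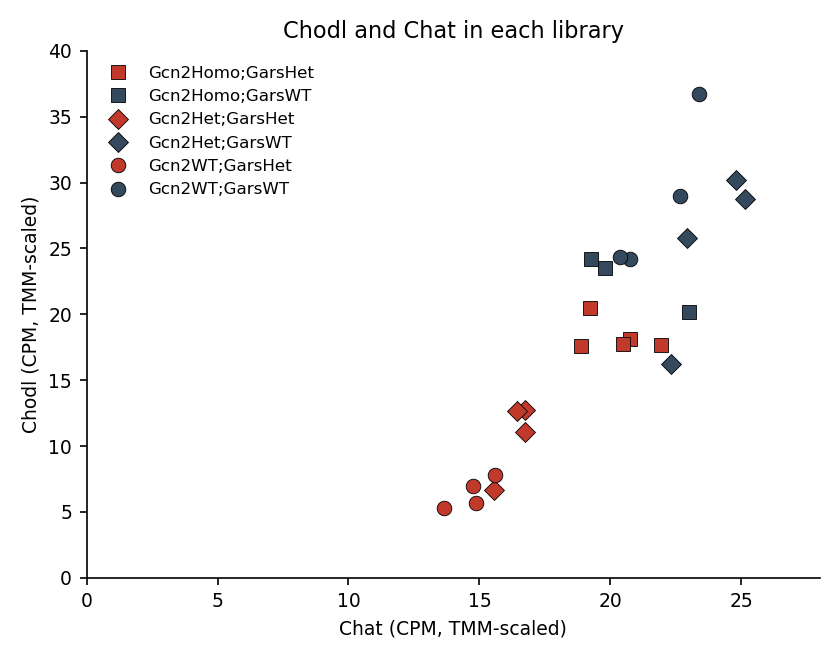
Chodl against Chat in each of the 24 libraries, both in TMM-scaled CPM on linear axes from 0, with a symbol for each Gcn2 genotype and GarsHet in red, GarsWT in blue. The 4 Gcn2WT;GarsHet libraries have 13.7 to 15.6 CPM of Chat and 5.30 to 7.81 CPM of Chodl. In Chat they overlap the Gcn2Het;GarsHet libraries, which start at 15.56 CPM and reach 16.7 CPM. The highest Chodl value, 36.7 CPM, belongs to a Gcn2WT;GarsWT library.

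The genotype labels were checked on Eif2ak4, which had 11.4 to 15.0 CPM over all Gcn2Homo libraries, 20.4 to 23.6 CPM over Gcn2Het libraries and 28.8 to 34.3 CPM over Gcn2WT libraries. The level of Gars RNA does not check the Gars labels, since the allele changes the protein. Motor neuron genes were present in all libraries, as Chat was at 13.7 CPM or more.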

How the data were processed

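Poly(A) RNA of whole spinal cord was sequenced as 75 bp paired reads with stranded kits, per the labels' protocols. The submitters' processing notes name Bowtie2 2.2.0 and RSEM 1.2.12, and the authors deposited expected counts and TPM per gene. The genome build is not given in the sources used here. RSEM shares reads between similar genes, and 72.0% of non-zero expected counts were within 0.005 of a whole number. Symbols came from GENCODE M21 (37607 of 38924 identifiers matched, and the others held 0.261% of counts). None of the matched genes overlaps a member, and the unmatched identifiers had no position to compare.

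Expected counts were rounded, filtered with filterByExpr by group (17409 genes left) and fitted with edgeR 4.0.16 in R 4.3.3, with TMM, the robust quasi-likelihood test and 1 fit of all 24 libraries with group and sex. P-values were adjusted by Benjamini-Hochberg over all 17409 genes. Log2 changes are given with SE and are GarsHet over GarsWT, or the Gcn2 mutant genotype over Gcn2WT. The fit was tested on simulated data. DESeq2 1.42.0, other scalings, covariates, subsets and each library left out were alternatives. Exact permutation tests used SciPy 1.17.1. The lowest chi-square per degree of freedom between libraries of a group was 12.26, so libraries of a group differed by more than sampling noise. The titles give each library its own pair of numbers and a sex without saying that each is a separate animal, so p-values measure the spread between these libraries.

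The members, the gene lists and the comparisons were chosen with earlier results of these data known. The 7 members are named in every comparison. Also named are genes of the motor neuron lists with counts for the whole list, and the 10 tested genes most correlated with Chodl. Eif2ak4 served as a check of the Gcn2 labels, while Gars RNA could not check the Gars labels. Of other lists, up to 2 genes could be named. Comparisons between Gcn2Homo and Gcn2Het were added after the values were seen.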

Additional observations from a re-analysis of the deposited data

Results flagged for a closer look

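Of 40 groups of 4 or 5 libraries in which the members' values and Chodl relative to the pan motor neuron genes were looked at, 2 held a library far from the rest of its group, where chance gives about 1 in 20. Chodl was at 20.5 CPM in Gcn2Homo;GarsHet replicate 2, beside 17.6 to 18.2 CPM in the other 4 libraries of that group. Chodl relative to the mean of the pan motor neuron genes was -0.69 (log2) in Gcn2Het;GarsWT replicate 4, beside 0.01 to 0.14 in the other 3 libraries. That library also had the lowest Chodl of its group, 16.2 CPM.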

How the results depend on the processing

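Chodl kept its calls in Gcn2WT mice (log2 change -2.41 to -1.92) and between Gcn2Homo and Gcn2WT in GarsHet mice (1.30 to 1.73) in all 36 alternatives. The cause of the changes below was not tested. In Gcn2Het mice the Chodl call, and with it the count of members (0), was lost with only the groups of the comparison (-1.17, adjusted p = 0.324), the title number as block (-1.33, 0.183), Schwann cell RNA as covariate (-1.13, 0.0554) and without the 5 libraries rich in it (-1.15, 0.244). The difference Gcn2Homo minus Gcn2WT called Chodl (1 member) with DESeq2 (1.76), no sex term (1.84) and only its own groups (1.77, 0.0149). Its own groups are the 4 genotypes of the design text. Over all genes, these settings called 35, 8 and 2. Chodl was further from a call with Schwann cell RNA as covariate (1.80, edgeR adjusted p = 0.0952). The same held without the 2 (1.60, 0.241) or 5 (1.59, 0.311) Schwann-rich libraries. Leaving out single libraries gave 1.60 to 1.85 and 0 to 1 members. Calls came without Gcn2WT;GarsWT replicate 3, Gcn2WT;GarsHet replicate 3, Gcn2Het;GarsHet replicate 1 or Gcn2Het;GarsWT replicate 4. For Gcn2Het minus Gcn2WT, DESeq2 called 1713 genes, 2 of them members, Chodl (0.91, 0.0212) and Esrrg. Single libraries left out gave 0.76 to 1.09 for Chodl and 0 to 2 members. Over all genes, that comparison had 0 to 1786 calls with single libraries left out, and the Gars comparison in Gcn2WT mice had 47 to 599, beside 110 with all libraries and 663 by DESeq2. DESeq2 called 31 genes between the Gars genotypes in Gcn2Homo mice, 1 of them a member, Mmp9. Between Gcn2Homo and Gcn2WT in GarsHet mice, 1 member was left, by loss of Mmp9, with only the own groups (0.57, 0.115), the Schwann covariate (0.53, 0.0822), without the 2 (0.58, 0.0705) or 5 (0.59, 0.0593) Schwann-rich libraries, and 1 to 2 with single libraries left out. Chodl relative to pan motor neuron genes in Gcn2WT mice was -1.71 to -1.50 with single libraries left out (exact permutation p = 0.0571, the smallest 3 against 4 allows). No called value changed sign; signs of values not called were not compared. Removing 5 Schwann-rich libraries and using neutrophil RNA as covariate were chosen after seeing the data. No paired analysis was possible because the labels give no replicate numbers. The number that opens each title is shared between groups, what it marks is not stated, and it was fitted as a block (title number as block, above).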
